A study of Mus musculus with 8 samples.

Results

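The miR-106b-25 cluster consists of the 3 hairpins miR-106b, miR-93 and miR-25, and its 6 mature miRNAs (mmu-miR-106b-5p, mmu-miR-106b-3p, mmu-miR-93-5p, mmu-miR-93-3p, mmu-miR-25-3p and mmu-miR-25-5p, here without the species prefix) were taken by name from the 1881 mouse miRNAs on a 1-colour Agilent array. The array was hybridised with serum RNA of 4 mice that had received a 7 Gy dose of X-rays and of 4 non-irradiated mice (0 Gy), with 1 array per serum. All were male C57BL/6NJcl mice, 8 weeks old when irradiated at 1.0 Gy/min, and the irradiated sera were collected at 72 h, whereas the collection time of the 0 Gy sera on the arrays is not given in the sources used here. Each array received Cy3-labelled miRNA from 30 ng of serum RNA, extracted from 200 µl of serum. Serum contains no cells, so that fewer releasing cells and less miRNA released per cell cannot be told apart in these values.

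MiRNAs are cut from hairpins of a longer transcript, and mostly 1 of the 2 arms is loaded into Argonaute, where its seed (bases 2 to 8) pairs with target mRNAs. The cluster is transcribed as part of Mcm7, which encodes a subunit of the replicative helicase, and proliferating cells express both. It is a paralog of the miR-17-92 cluster, and in human cells both are known to repress the cell cycle inhibitor p21 (CDKN1A) and the pro-apoptotic protein Bim (BCL2L11). MiR-106b-5p, miR-93-5p and miR-25-3p are the arms usually retained, and their partners miR-106b-3p, miR-93-3p and miR-25-5p are usually degraded.

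The 3 hairpins spanned 498 bases, chr5:138165321-138165818 on the minus strand (RefSeq annotation, GRCm38.p6), inside the Mcm7 gene at chr5:138164583-138172111. Between them lay 126 bases (miR-106b to miR-93) and 118 bases (miR-93 to miR-25). They are shown in the order of transcription, with both mature arms in capitals, because the arms differed in whether they were detected in serum.
Mir106b: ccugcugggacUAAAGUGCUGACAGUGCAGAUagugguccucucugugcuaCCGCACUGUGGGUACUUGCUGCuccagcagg
Mir93: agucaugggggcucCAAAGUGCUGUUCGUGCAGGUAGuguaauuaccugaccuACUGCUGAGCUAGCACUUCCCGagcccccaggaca
Mir25: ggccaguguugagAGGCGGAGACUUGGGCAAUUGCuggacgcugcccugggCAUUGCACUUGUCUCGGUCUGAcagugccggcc

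The mature sequences follow with the seed in capitals, because the members divide by their seeds. All 6 members were matched by name in RefSeq.
miR-106b-5p: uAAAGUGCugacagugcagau
miR-93-5p: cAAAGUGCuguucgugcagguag
miR-25-3p: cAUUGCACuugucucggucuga
miR-106b-3p: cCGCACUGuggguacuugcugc
miR-93-3p: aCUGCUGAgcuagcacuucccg
miR-25-5p: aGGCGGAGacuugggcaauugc

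The closest relatives from the miR-17-92 cluster on chromosome 14 are given for comparison. The mature miR-92a-3p is also encoded on the X chromosome.
miR-17-5p: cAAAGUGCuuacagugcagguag
miR-20a-5p: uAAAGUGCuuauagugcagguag
miR-92a-3p: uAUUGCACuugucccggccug

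MiR-106b-5p and miR-93-5p shared the seed AAAGUGC, and miR-25-3p carried AUUGCAC. Counted from the 5′ end, miR-106b-5p was identical to miR-93-5p at 16 of 21 positions and to miR-20a-5p at 18 of 21, miR-93-5p to miR-17-5p at 19 of 23, and miR-25-3p to miR-92a-3p at 18 of 21. The RefSeq table held 7 mouse miRNAs with the seed AAAGUGC and 6 with AUUGCAC, whereas each of the 3 usually degraded arms had a seed of its own. Because related miRNAs differ at few bases, part of the signal at a probe could come from a relative, and this was not tested.

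The arrays differed in quality along the groups. The labelling spike-ins, control RNAs added before Cy3 labelling, had a log10 signal of 2.31, 3.35, 1.95 and 1.97 on 7 Gy replicates 1 to 4, against 3.68, 3.45, 2.73 and 3.37 on 0 Gy replicates 1 to 4. The scanner software, Agilent Feature Extraction, placed 7 Gy replicates 1, 3 and 4 out of its accepted range, and between 378 and 687 miRNAs were detected at 7 Gy, against between 531 and 603 at 0 Gy. The hybridization spike-ins were in range on all 8 arrays. On the single slide the 7 Gy arrays filled columns 3 and 4 and the 0 Gy arrays columns 1 and 2, and the effects of column and irradiation cannot be told apart.

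Of the 6 members, 5 were detected on at least 1 array. MiR-25-3p and miR-106b-5p were detected on all 8, miR-93-5p and miR-93-3p each on 1 of 4 arrays at 7 Gy and 4 of 4 at 0 Gy, miR-106b-3p on 1 of 4 at 7 Gy and 2 of 4 at 0 Gy, and miR-25-5p on none. The single 7 Gy array with miR-93-5p, miR-93-3p and miR-106b-3p was replicate 2, the only 7 Gy array with labelling spike-ins in range.

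**Figure D1:**
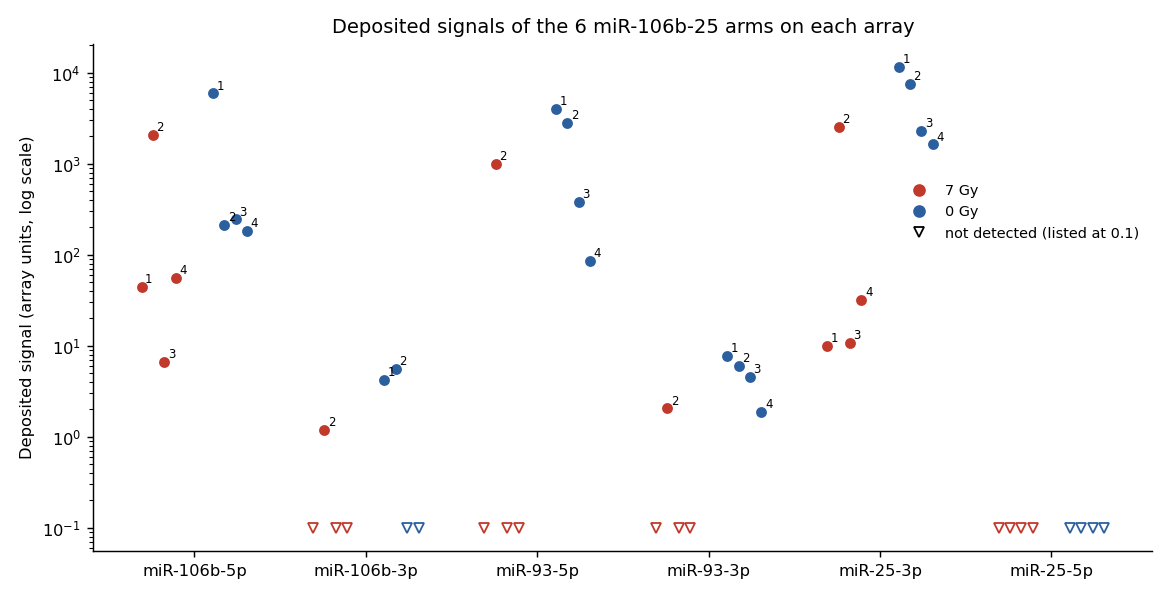
Deposited signal (array units, log axis) of the 6 arms on each array, 7 Gy in red and 0 Gy in blue, with replicate numbers beside the points. Open triangles are arrays on which the arm was not detected and is listed at 0.1, and 7 Gy replicate 2 had the highest 7 Gy signal for each of the 5 detected arms.

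Signals were then scaled to a common 90th percentile per array, values under 100 were set to this floor, and log2 signals were compared with limma over 208 miRNAs, of which 3 were members (miR-25-3p, miR-93-5p and miR-106b-5p). A miRNA was called at a Benjamini-Hochberg adjusted p under 0.05. Of the 3 tested members, miR-25-3p was called, lower at 7 Gy, and no member was called higher. Over all miRNAs tested, 4 of 208 (1.92%) were called lower and 4 higher, with 11 lower and 7 higher under scaling to the 75th and 1 lower and 6 higher under scaling to the 90th percentile, both taken over the miRNAs detected on all arrays only, 4 lower and 2 higher under quantile normalization, and 0 without scaling or under spike-in scaling. Median log2 fold changes were −1.93 over the 3 members and 0.17 over all tested miRNAs. The median of the members is the value of miR-93-5p alone, which was not called. This miRNA was detected on 1 array at 7 Gy and on 4 at 0 Gy, and 3 of its 7 Gy arrays were at the floor.

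MiR-25-3p had a lower scaled signal on every irradiated array than on any control array. In human cells this miRNA is known to repress the cell cycle inhibitor p57 (CDKN1C) and Bim. The deposited signal was 10.02, 2559, 10.72 and 32.0 on 7 Gy replicates 1 to 4, against 11537, 7531, 2308 and 1630 on 0 Gy replicates 1 to 4. The groups overlapped before scaling, where 7 Gy replicate 2 lay above 0 Gy replicates 3 and 4. After scaling, the signal was 43.4, 969, 49.6 and 24.2 at 7 Gy, against 4499, 3400, 2456 and 1515 at 0 Gy. Every 7 Gy array then lay below every 0 Gy array, as for 11 of the 208 tested miRNAs (5.29%). With the floor, the signal averaged 317 ± 435 at 7 Gy and 2967 ± 1279 at 0 Gy (SD, n = 4 each). The log2 fold change was −3.96 (SE 0.81, limma adjusted p = 0.0474), and the two-sided exact permutation test gave p = 0.0286, the smallest that 4 arrays against 4 allow.

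The size of this difference was bounded by the floor, and its call was close to the threshold. Replicates 1, 3 and 4 at 7 Gy lay under the floor although all 15 spots of both miR-25-3p probes were well above background on them, and with a floor of 10, under which no array fell, the log2 fold change was −5.03 (limma adjusted p = 0.0474). The call was lost when any single array other than 7 Gy replicate 2 was left out (limma adjusted p between 0.0922 and 0.157), whereas without 7 Gy replicate 2 the log2 fold change was −4.78 (limma adjusted p = 0.000735). Without the 3 arrays with out-of-range labelling spike-ins, which leaves 7 Gy replicate 2 against the 4 arrays at 0 Gy, it was −1.50 (limma adjusted p = 0.776), with the lone array assumed to vary like the others. With that signal entered as a covariate, it was −2.20 (limma adjusted p = 0.188).

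MiR-93-5p was not detected on 7 Gy replicates 1, 3 and 4, where none of its 30 spots was well above background. Its deposited signal on 7 Gy replicate 2 was 995, against 4007, 2792, 380 and 85.7 on 0 Gy replicates 1 to 4. After scaling, the single detected 7 Gy value was 377, against 1563, 1261, 404 and 79.7 at 0 Gy. That 7 Gy array thus lay between the lowest and the next 0 Gy array, and the groups overlapped. The log2 fold change was −1.93 (SE 0.94, limma adjusted p = 0.223; exact permutation test, two-sided, p = 0.143), so that the difference did not pass the test. In this fit 3 of the 7 Gy arrays and 1 of the 0 Gy arrays were at the floor. The size of the difference moved with the floor and the labelling, at −4.34 with a floor of 10, and at −0.58 with the labelling spike-in covariate and −0.50 without the 3 arrays out of range, and it passed the test in none of these.

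MiR-106b-5p, which has the same seed as miR-93-5p, was detected on all 8 arrays. The deposited signal was 44.1, 2063, 6.61 and 55.3 on 7 Gy replicates 1 to 4, against 5920, 211, 245 and 184 on 0 Gy replicates 1 to 4. After scaling, it was 191, 781, 30.6 and 41.8 at 7 Gy, against 2308, 95.4, 261 and 171 at 0 Gy. The groups overlapped on both scales, with 7 Gy replicate 2 above 3 of the 4 arrays at 0 Gy. The log2 fold change was −0.70 (SE 1.12, limma adjusted p = 0.677; two-sided exact permutation test, p = 0.629). The value turned to 0.26 without 0 Gy replicate 1, 1.29 without the 3 arrays with labelling spike-ins out of range and 1.17 with their signal as a covariate, so that no direction can be given for this miRNA.

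**Figure D2:**
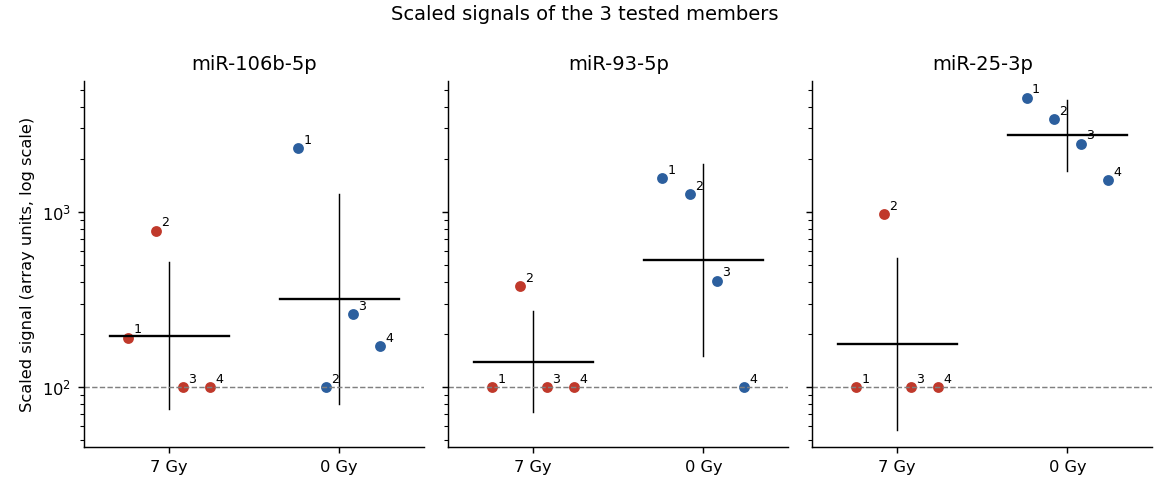
Scaled signal (array units, log axis) of the 3 tested members, with 7 Gy left of 0 Gy and replicate numbers beside the points. Horizontal bars are means and vertical lines ± 1 SD of log2 signals, the dashed line is the floor of 100, and the groups are apart only for miR-25-3p.

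Both slide rows held 2 arrays of each group. The log2 difference of miR-25-3p was −3.65 in row 1 and −4.27 in row 2, that of miR-93-5p −2.85 and −1.01, and that of miR-106b-5p −0.31 and −1.08. All 6 differences were thus below 0, with 2 arrays per group in each and no test.

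The usually degraded arms gave signals of a few units, and their scaled signals were below the floor on all arrays, so that they were not tested. The deposited signal of miR-93-3p was 2.05 on 7 Gy replicate 2, against 7.76, 6.07, 4.53 and 1.90 on 0 Gy replicates 1 to 4. MiR-106b-3p reached 1.20 on 7 Gy replicate 2, against 4.20 and 5.55 on 0 Gy replicates 1 and 2. In both cases only 1 of 4 probes had any spot well above background, the others having none on any array. MiR-25-5p had no spot well above background at either of its 2 probes.

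The 2 probes of a member gave like differences. Without a floor, the log2 difference of scaled probe signals was −4.58 and −5.24 for the probes of miR-25-3p, and −1.54 and −1.23 for those of miR-106b-5p. Across the 8 arrays, log2 signals of the probe pair correlated with r = 0.9995 for miR-25-3p and r = 0.999 for miR-106b-5p, given as a description because both probes share the RNA and the array. For miR-93-5p, both probes had all 15 spots well above background on 7 Gy replicate 2 and on the 4 arrays at 0 Gy, and none on 7 Gy replicates 1, 3 and 4.

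Differences between miRNAs of the same array do not depend on the scale of that array, and they were used to ask whether members of 1 transcript differed between the groups by unequal amounts. Only the change of a difference between groups was read, since signals of different probes cannot be set against each other. MiR-25-3p minus miR-106b-5p, in log2 deposited signal, was −2.14, 0.31, 0.70 and −0.79 on 7 Gy replicates 1 to 4, against 0.96, 5.16, 3.23 and 3.15 on 0 Gy replicates 1 to 4. All 7 Gy arrays lay below all 0 Gy arrays, with a mean of −0.48 ± 1.27 at 7 Gy and 3.13 ± 1.71 at 0 Gy (SD, n = 4 each). The change was −3.61 (−3.26 in scaled signals with the floor; two-sided exact permutation test, p = 0.0286 for both). In scaled signals with the floor, p was 0.0571 after Benjamini-Hochberg adjustment over the 6 pairs compared. MiR-25-3p was thus lower relative to miR-106b-5p on each irradiated array, but the difference did not pass the adjusted threshold. Its exact p was already the smallest that 4 arrays against 4 allow, so that the adjusted value depended on the other pairs.

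The same comparison with miR-92a-3p, the miR-17-92 member with the seed of miR-25-3p, gave −2.46, 0.24, −2.32 and −1.85 on 7 Gy replicates 1 to 4, against 0.62, 0.56, 0.42 and 0.29 on 0 Gy replicates 1 to 4. The 4 values at 0 Gy lay within a narrow range, and 7 Gy replicate 2 came just below them while the other 7 Gy arrays, those with labelling spike-ins out of range, were far lower. The means were −1.60 ± 1.25 at 7 Gy and 0.47 ± 0.15 at 0 Gy (SD, n = 4 each). The change was −2.07 (two-sided exact permutation test, p = 0.0286). In scaled signals with the floor, under which miR-25-3p lay on 3 of the 7 Gy arrays, it was −1.06 (exact permutation test, p = 0.0286; adjusted over the 6 pairs, p = 0.0571). With the floor but no scaling it was −0.46. The part of the labelling yield in either difference was not tested.

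**Figure D3:**
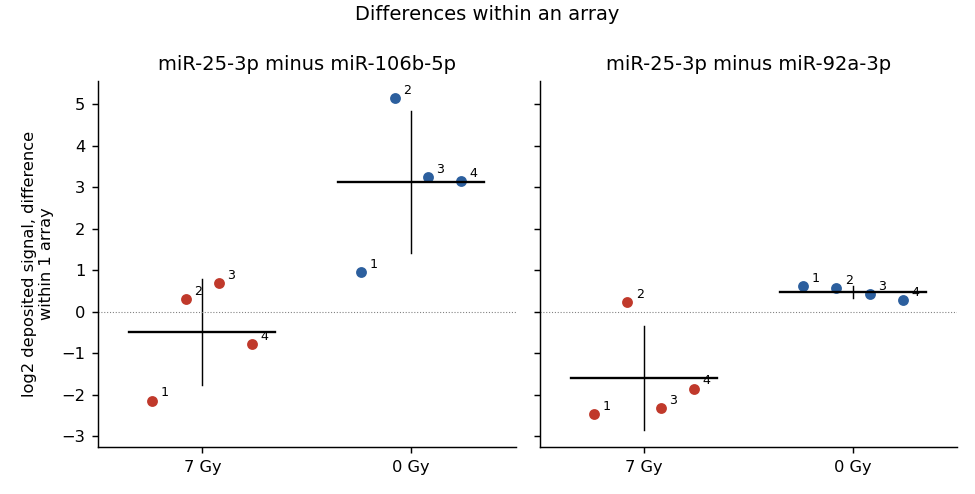
Difference of log2 deposited signals within each array for miR-25-3p minus miR-106b-5p (left) and miR-25-3p minus miR-92a-3p (right), with 7 Gy left of 0 Gy and replicate numbers beside the points. Horizontal bars are means and vertical lines ± 1 SD, and in both panels the 4 arrays at 7 Gy lie below the 4 at 0 Gy.

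The other pairs involved miRNAs that were not detected on some arrays, so that scaled signals with the floor were used. The change was −2.03 for miR-25-3p minus miR-93-5p (two-sided exact permutation test, p = 0.0286, adjusted p = 0.0571), −1.23 for miR-93-5p minus miR-106b-5p (exact p = 0.314, adjusted p = 0.377) and 0.022 for miR-106b-5p minus miR-20a-5p (exact p = 1). MiR-17-5p was at the floor on all 8 arrays, so that miR-93-5p minus miR-17-5p repeated the difference of miR-93-5p itself. For miR-25-3p minus miR-93-5p, both miRNAs were at the floor on 7 Gy replicates 1, 3 and 4, so that the floor set the difference to 0 there. On 7 Gy replicate 2, where both were detected, it was 1.36, against between 1.43 and 3.92 at 0 Gy. The p-value of this pair thus rests on the floor. With a floor of 10 the change was −0.69 (exact permutation test, adjusted p = 0.48). The pair changed its direction with a floor of 1, to 1.81, because miR-93-5p then took a lower value on the arrays where it was not detected.

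The paralogous clusters were described beside the members. Of 24 listed miRNAs (miR-17-92, miR-106a-363, miR-32-5p and miR-367-3p), 23 were on the array and 7 were tested, of which 0 were called by limma. All 7 had a log2 fold change below 0, with a median of −0.33, against 84 of all 208 tested miRNAs. MiR-17-3p, miR-18a-5p and miR-20b-5p were at the floor on all 4 arrays at 7 Gy, so that a value above 0 was not possible. MiR-19a-3p, miR-19b-3p and miR-20a-5p were at the floor on 3 of these arrays. At an unadjusted p under 0.05, limma and the methods' t-test each gave 1 of the 7 (miR-92a-3p), while limma gave 46 higher and 16 lower of the 208 tested miRNAs. The summed scaled signal of the list was between 99.4 and 2196 at 7 Gy, against between 1346 and 5501 at 0 Gy, and the groups overlapped through 7 Gy replicate 2.

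Among these, miR-92a-3p came closest to miR-25-3p. Its scaled signal was 240, 820, 249 and 87.2 on 7 Gy replicates 1 to 4, against 2918, 2305, 1833 and 1243 on 0 Gy replicates 1 to 4. All 7 Gy arrays lay below all 0 Gy arrays, and the log2 fold change of −2.90 (SE 0.62) missed the threshold (limma adjusted p = 0.0510). The other miRNA with this seed detected on all 8 arrays, miR-92b-3p, which was not in the list, had scaled signals between 0.516 and 20.4 at 7 Gy, against between 0.628 and 8.82 at 0 Gy, all below the floor. MiR-363-3p was detected on 1 array, and miR-32-5p and miR-367-3p on none.

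Relatives of miR-106b-5p and miR-93-5p with the same seed were also tested. MiR-20a-5p had a log2 fold change of −0.72 (limma adjusted p = 0.317) and miR-20b-5p −0.33 (adjusted p = 0.426), and both were detected at 7 Gy on replicate 2 only. MiR-19b-3p and miR-19a-3p, which belong to the miR-17-92 transcript but carry another seed, had log2 fold changes of −0.66 (adjusted p = 0.677) and −0.004 (adjusted p = 0.999). None of these differences passed the test, and 3 of the 4 arrays at 7 Gy were at the floor for miR-20a-5p, miR-19a-3p and miR-19b-3p.

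**Figure D4:**
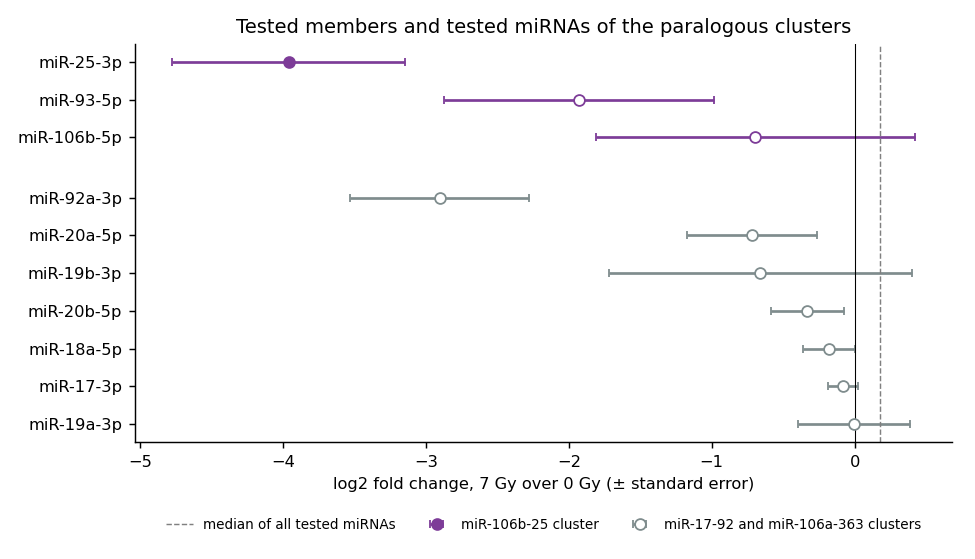
Log2 fold change, 7 Gy over 0 Gy, with its limma standard error, for the 3 tested members (purple) and the 7 tested miRNAs of the paralogous clusters (grey). The filled point passed the adjusted threshold (miR-25-3p, −3.96), open points did not, and the dashed line is the median of all 208 tested miRNAs, 0.17.

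Blood cell miRNAs were read on the same arrays, since blood cells are rich in the cluster's miRNAs and can release them into serum during collection. Of the 5 listed red cell miRNAs, 4 were on the array, and 2, 4, 2 and 2 of them were detected on 7 Gy replicates 1 to 4, against 4 of 4 on each 0 Gy array. Their summed scaled signal was between 7322 and 25821 at 7 Gy, against between 16446 and 80867 at 0 Gy. On 7 Gy replicates 1, 3 and 4, miR-486a-5p alone gave 12661, 25788 and 7312 of sums of 12745, 25821 and 7322. The sum on these arrays thus describes this miRNA rather than the list. The groups overlapped, and none of the 4 was called by limma, 1 of them (miR-451a) having an unadjusted p under 0.05 there and in the methods' t-test. MiR-451a, the most specific of these for red cells, was at 83.5, 14871, 32.9 and 10.6 scaled units on 7 Gy replicates 1 to 4, against 67369, 39046, 2762 and 5570 on 0 Gy replicates 1 to 4 (log2 fold change −5.34, limma adjusted p = 0.129). MiR-486a-5p, which is also abundant in red cells, was detected on all 8 arrays, with a log2 fold change of −0.46 (limma adjusted p = 0.705). MiR-16-5p (−2.13, adjusted p = 0.434) and miR-144-3p (−0.005, adjusted p = 0.982) completed the list. Both were at the floor on 3 arrays at 7 Gy and 2 at 0 Gy. They were detected on every 0 Gy array but not on 7 Gy replicates 1, 3 and 4. The highest scaled signal of miR-144-3p, on 7 Gy replicate 2, was 105, just above the floor. The floor thus left little room for a difference of miR-144-3p, and its value does not show that it was unchanged. The part of red cell miRNA in the difference of miR-25-3p was not tested.

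The 2 platelet and 2 lymphocyte miRNAs were not called by limma either, and at an unadjusted p under 0.05 limma and the methods' t-test each gave 1 of the 4 (miR-142a-3p). The summed scaled signal of miR-126a-3p and miR-223-3p, both abundant in platelets, was between 6.94 and 613 at 7 Gy, against between 33.2 and 1480 at 0 Gy. Both lymphocyte miRNAs, miR-150-5p and miR-142a-3p, were detected on 7 Gy replicate 2 and on all 0 Gy arrays, and on no other array. MiR-142a-3p, which all haematopoietic cells express, had a log2 fold change of −1.86 (limma adjusted p = 0.0601) and miR-150-5p of −0.27 (adjusted p = 0.313). Both were at the floor on all 4 arrays at 7 Gy, so that a value above 0 was not possible. The platelet miRNAs had log2 fold changes of −0.32 for miR-126a-3p (adjusted p = 0.721) and −0.89 for miR-223-3p (adjusted p = 0.478). Each of these was at the floor on 3 arrays at 7 Gy and 2 at 0 Gy.

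Across the 8 arrays the 3 tested members did not follow a single pattern. In scaled log2 signal, miR-25-3p correlated with miR-93-5p at r = 0.82 and with miR-106b-5p at r = 0.52, and miR-93-5p with miR-106b-5p at r = 0.57. These and the following values describe arrays that fall into groups and share floor values, and no p is given. Most like miR-25-3p were miR-92a-3p (r = 0.97), miR-140-3p (r = 0.95) and miR-451a (r = 0.95). Most like miR-93-5p were miR-15a-5p (r = 0.92), miR-16-5p (r = 0.91) and miR-652-3p (r = 0.88), and most like miR-106b-5p were miR-497a-5p (r = 0.94), miR-19a-3p (r = 0.92) and miR-19b-3p (r = 0.90). The 3 miRNAs most like miR-106b-5p had their highest signals on 0 Gy replicate 1 and 7 Gy replicate 2. MiR-497a-5p and miR-19a-3p were at the floor on all other arrays, so that their r values rest on those arrays. On 7 Gy replicates 1, 3 and 4, none of the 9 miRNAs had a higher scaled signal, with the floor, than on any other array. All 9 were chosen by their likeness to the members on these same arrays, so that low signals there were largely set by the choice. They do not describe miRNAs chosen in another way. Among these 9 miRNAs, miR-140-3p was called, lower at 7 Gy (log2 fold change −2.71, SE 0.55, limma adjusted p = 0.0474).

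The labelling spike-in signal was set beside the scaled signals of the 3 tested members. The 3 arrays at 7 Gy with spike-ins out of range gave the lowest scaled signals of miR-25-3p and miR-93-5p and the 2 lowest of miR-106b-5p. The third of these arrays, 7 Gy replicate 1, had miR-106b-5p at 191, above 0 Gy replicates 2 (95.4) and 4 (171). On 7 Gy replicate 2, whose spike-in signal of 3.35 lay within the range of the 0 Gy arrays, the scaled signal was 969 for miR-25-3p, below the lowest 0 Gy array (1515), while the values of miR-93-5p and miR-106b-5p lay within the 0 Gy range. Labelling and irradiation largely moved together on these arrays, and the part of the labelling in the result was not tested.

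**Figure D5:**
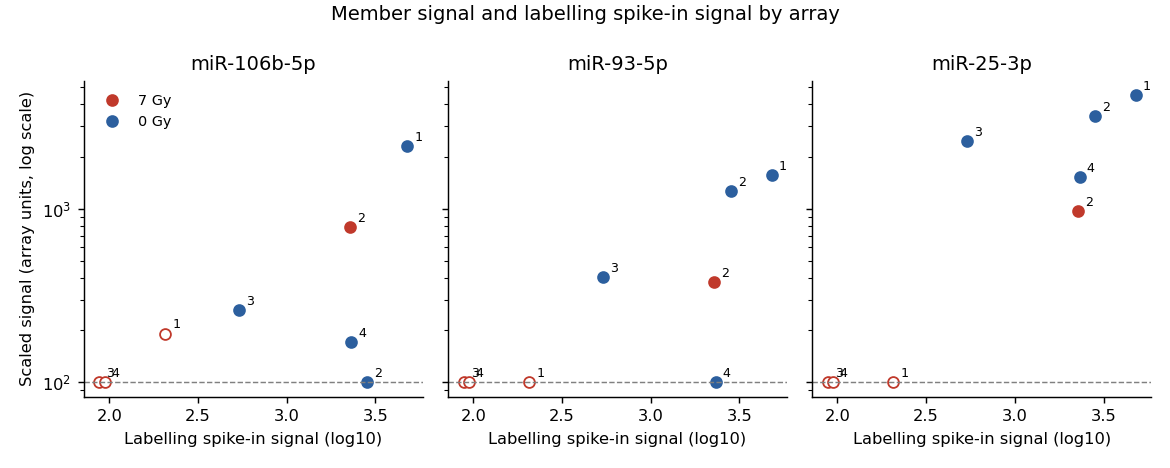
Scaled signal of the 3 tested members (array units, log axis, floor of 100 dashed) against the labelling spike-in signal (log10) of the same array, 7 Gy in red and 0 Gy in blue, with replicate numbers. Open points are the 3 arrays at 7 Gy with spike-ins out of range, and 7 Gy replicate 2 lies at 969 for miR-25-3p, under all 0 Gy arrays.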

How the data were processed

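Serum miRNA was measured on 8 arrays (7 Gy and 0 Gy, 4 mice each). The deposited intensity values are Feature Extraction output, in which the authors had background subtracted and the probe signals of a miRNA summed, with 0.1 for miRNAs not detected and arrays left unnormalized. Version 11.5 of the software is named in the submitters' processing notes. Control spots were left out and no spot was saturated.

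From there, each array was shifted to a common 90th percentile over the 1881 mouse miRNAs (35.6 units), values under 100 were set to 100, as the lower cut-off of the methods was read, and log2 was taken. MiRNAs detected on at least 3 arrays and not at the floor on all 8 were tested in limma 3.58.1 (lmFit, eBayes; R 4.3.3) without a block, and p-values were adjusted by Benjamini-Hochberg. For single values and 6 within-array pairs, exact permutation tests (two-sided) ran over 70 arrangements. The fit was checked on 20 simulated data sets. Each serum was taken as 1 mouse, p-values measure the spread between these 8 sera, and precision is limited by the number of arrays. Sequences are from RefSeq (GRCm38.p6). The Mcm7 transcript was not measured here. Plots were made in Python 3.11.15 (matplotlib 3.10.9).

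Members and lists were chosen with earlier results of these data known. Named were the 6 members, of the paralog list every called miRNA, the 4 of highest mean signal and those used in pairs, the blood cell miRNAs, and the 3 miRNAs most like each tested member. Others with the members' seeds were named after their values were seen. Alternatives covered percentiles, quantile normalization, spike-in scaling, floors, spot signals, normexp on median signals (offset 50), the detection filter, array weights, variance prior, the methods' t-test, replicate and slide row blocks, the labelling covariate and leaving out arrays. A floor of 1 was added after seeing the data.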

Additional observations from a re-analysis of the deposited data

Results flagged for a closer look

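In groups of 4 arrays, a value was singled out where its gap to the nearest other array, divided by the range of the group, was above Dixon's 95% critical value. Chance singles out about 1 in 20 groups, and 28 groups were examined. The ratio was 0.917 for 0 Gy replicate 1 in the deposited log2 signal of miR-106b-5p, at 5920 units against between 184 and 245 on the other 0 Gy arrays. It was 1 for 7 Gy replicate 2 in the scaled and the deposited signal of miR-93-5p, in the scaled signal of miR-25-3p, and in miR-25-3p minus miR-93-5p and miR-93-5p minus miR-17-5p within the array. In these 5 cases the other 7 Gy arrays shared 1 value, at the floor or not detected, so that a ratio of 1 follows. The same array was the only 7 Gy array with labelling spike-ins in range (log10 signal 3.35, against 2.31, 1.95 and 1.97 on the others).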

How the results depend on the processing

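Of 29 alternatives, 1 (detection on at least 1 array) tested the same 208 miRNAs and repeated the reported fit. MiR-25-3p stayed below 0 in all 29 and passed the threshold in 11, among them this repeat and the methods' t-test at their unadjusted threshold. Its log2 fold change (with the adjusted p of limma unless named) was −4.12 (0.0657) at the 90th percentile of miRNAs detected on all arrays, −3.98 (0.0796) with quantile normalization, −4.24 (0.308) without scaling, −2.83 (0.495) scaled to the labelling spike-ins, −3.93 (0.260) to the hybridization spike-ins, −4.71 (0.0520) with a floor of 50, −5.03 (0.0549) with a floor of 1 and −3.96 (0.110) by the methods' t-test after Benjamini-Hochberg adjustment. It was −2.20 (0.188) with the labelling covariate and −1.50 (0.776) without the arrays out of range. In each of these settings the number of members called was 0. Leaving out each array gave −4.78 to −3.69. Its exact permutation p was 0.0857 without scaling (−4.24, and −6.29 with a floor of 1).

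MiR-93-5p was below 0 in all 28 alternatives, from −6.83 with a floor of 1 to −0.50 without the arrays out of range (−3.19 with normexp, −2.73 to −1.41 leaving out each array), and passed in 0. MiR-106b-5p passed in 0 of 29, and turned to 0.13 with labelling spike-in scaling, 1.17 with the covariate and 1.29 without the arrays out of range, and ran from −1.36 to 0.26 leaving out each array. MiR-25-3p minus miR-93-5p turned to 1.81 with a floor of 1. MiR-106b-5p minus miR-20a-5p turned to −0.20 without scaling and −0.21 with a floor of 50, and ran from −0.62 to 0.55 leaving out each array.

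Over all miRNAs, 4 were higher and 4 lower. The counts were 7 higher and 11 lower at the 75th and 6 and 1 at the 90th percentile, both over miRNAs detected on all 8 arrays, 2 and 4 with quantile normalization, 2 and 3 with a floor of 50, 9 and 19 with a floor of 10, 2 and 6 with a floor of 1, 2 and 16 with normexp, 0 and 4 with a robust trended prior, 61 and 14 with array weights, 18 and 8 with the slide row as a block, 1 and 0 without the arrays out of range, and 0 and 0 without scaling, with either spike-in scaling or the labelling covariate. At an unadjusted p under 0.05 in limma these last were 1 and 17 without scaling, 26 and 3 with labelling and 10 and 11 with hybridization spike-in scaling and 12 and 21 with the covariate, beside 46 and 16 as reported. The methods' t-test gave 34 and 14 at their threshold and 1 and 1 after adjustment. Leaving out each array gave 0 to 56 higher and 1 to 14 lower, and 0 to 1 members. The median log2 fold change of all tested miRNAs, 0.17, was −0.12 at that 75th and −0.062 at that 90th percentile, 0.061 with quantile normalization, −0.091 without scaling and 0.50 with labelling spike-in scaling. The causes were not tested.

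The replicate numbers were not taken as pairs, since the labels name nothing shared by a number and same-numbered arrays correlated at −0.34, 0.43, 0.55 and 0.42 in their deviations from the group means, while 7 Gy replicate 2 correlated at 0.71 with 0 Gy replicate 1 and 7 Gy replicate 4 at 0.49 with 0 Gy replicate 3. With the replicate block, 0 were higher and 0 lower (47 and 18 at an unadjusted p under 0.05 in limma), 0 members were called, and miR-25-3p was at −3.96 (adjusted p = 0.0804).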
